A study of Mus musculus with 14 samples.

Results

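Methylated regions common to iPS cells, ES cells and fibroblasts were examined in 14 peak lists of MBD-seq. This assay pulls down sheared DNA with a protein that binds methylated CpGs and sequences it, and a pile of sequence tags (a peak) marks methylated DNA. Peaks of the 14 samples that overlapped by at least 1 bp were merged on chromosomes 1 to 19, and a merged region was kept when it held a peak of every sample. This gave 14579 shared regions among 147237 merged regions (9.90%), covering 22.8 of 131.9 Mb. They were chosen by the presence of a peak, so their being methylated in every sample is not a result. A peak gives neither the percentage of methylated CpGs nor the fraction of cells or alleles that carry them.

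The samples were 4 clones of Aid+/+ iPS cells (967B2, 967B4, 979B1 and 979B3, replicates 1 to 4), 4 clones of Aid-/- iPS cells (979F1, 979F3, 981E1 and 981E4, replicates 1 to 4), 3 lines of ES cells and 3 cultures of embryonic fibroblasts from Aid+/+ mice (MEFs). Aid is a cytidine deaminase that edits antibody genes in B cells, and the study asked whether methylation in iPS cells depends on it. MEFs were collected at passage 3 and iPS clones at passage 6, both with a mixed background of C57BL6, DBA and 129S4. All iPS clones carried a Nanog-GFP reporter, were made from MEFs with retroviruses carrying Klf4, Sox2 and Oct3/4, some with c-Myc too, and were grown on gelatin when collected. Each iPS sample is 1 mechanically picked clone, kept in medium with puromycin. The ES lines were RF8 at passage 19 (129SV, given as 129S4 in the paper, replicate 1), MG1.19 (129Ola, replicate 2) and B6 ES (C57BL6, replicate 3). Every ES sample was thus of another strain.

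The libraries held 20.1 to 36.9 M total tags and 6.65 to 19.6 M after the removal of duplicates, called filtered tags below. ES replicate 2 and MEF replicate 3 had the fewest peaks on these chromosomes, 31650 and 33500, against 45572 to 106408 in the other samples. At the label checks, the promoter of Pou5f1, which encodes Oct3/4, held a peak in 8 of 8 iPS clones. No ES line or MEF culture held one there. By pyrosequencing, the paper reports hypomethylation of that promoter in iPS cells of either genotype. The clones were made with retroviral copies of this gene, and whether tags of those copies add to the peak was not tested. The promoter of Nanog, a pluripotency factor, held a peak in 2 of 3 MEF cultures only.

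DNA methylation in mammals is placed on cytosines of CpG pairs and is copied at each cell division. It is known for silencing transposable elements, such as intracisternal A particles (IAPs, endogenous retroviruses) and LINE-1 elements, for marking 1 parental allele of imprinted genes, and for shutting germline genes in somatic cells. During reprogramming much of it is rewritten, whereas imprints and most retroviral repeats are known to keep it in ES cells, iPS cells and fibroblasts alike.

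The following sequences show what DNA the shared regions hold. The first set gives the bases within 100 bp of the median summit, the point of highest tag pile (NCBI build 37, mm9, plus strand), with every CpG in capitals. They are, in this order, a satellite repeat and a tandem repeat in an intron of Gm608, both among the regions with the strongest peaks, the start sites of the imprinted genes Zrsr1 and H19, the start site of the germ-cell gene Dazl, the coding exon of the olfactory receptor gene Olfr691, an intron of D6Wsu116e, and an intron of Acnat1.
chr12:3109884-3110084: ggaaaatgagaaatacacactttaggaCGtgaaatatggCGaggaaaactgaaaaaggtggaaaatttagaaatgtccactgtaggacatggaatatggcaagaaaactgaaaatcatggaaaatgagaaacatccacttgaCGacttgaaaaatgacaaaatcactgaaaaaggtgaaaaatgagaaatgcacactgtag
chr16:44195144-44195344: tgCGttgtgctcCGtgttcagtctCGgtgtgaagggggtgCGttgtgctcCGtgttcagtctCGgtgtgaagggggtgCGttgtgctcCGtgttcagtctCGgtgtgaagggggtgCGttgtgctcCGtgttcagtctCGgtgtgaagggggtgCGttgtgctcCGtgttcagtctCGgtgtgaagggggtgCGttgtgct
chr11:22872732-22872932: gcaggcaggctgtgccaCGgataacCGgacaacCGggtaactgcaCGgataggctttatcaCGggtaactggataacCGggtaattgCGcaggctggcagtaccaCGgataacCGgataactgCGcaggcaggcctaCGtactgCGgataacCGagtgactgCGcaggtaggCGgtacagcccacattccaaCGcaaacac
chr7:149762670-149762870: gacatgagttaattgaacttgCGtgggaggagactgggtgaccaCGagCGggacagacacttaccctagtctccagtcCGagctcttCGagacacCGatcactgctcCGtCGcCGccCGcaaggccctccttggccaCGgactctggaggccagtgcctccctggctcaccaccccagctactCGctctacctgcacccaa
chr17:50432946-50433146: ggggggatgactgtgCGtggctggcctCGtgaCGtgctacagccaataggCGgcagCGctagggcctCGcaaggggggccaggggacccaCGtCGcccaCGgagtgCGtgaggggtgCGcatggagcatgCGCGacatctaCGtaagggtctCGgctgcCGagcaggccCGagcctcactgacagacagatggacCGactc
chr7:112485466-112485666: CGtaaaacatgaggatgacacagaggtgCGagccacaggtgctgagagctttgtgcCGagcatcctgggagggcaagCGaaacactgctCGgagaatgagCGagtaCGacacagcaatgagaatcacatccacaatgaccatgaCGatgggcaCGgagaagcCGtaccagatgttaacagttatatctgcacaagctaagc
chr6:116192204-116192404: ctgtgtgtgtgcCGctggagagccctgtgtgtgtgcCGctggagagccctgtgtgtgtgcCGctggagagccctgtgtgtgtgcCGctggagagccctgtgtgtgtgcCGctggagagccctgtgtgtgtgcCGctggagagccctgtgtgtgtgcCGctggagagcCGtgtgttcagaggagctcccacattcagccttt
chr4:49479848-49480048: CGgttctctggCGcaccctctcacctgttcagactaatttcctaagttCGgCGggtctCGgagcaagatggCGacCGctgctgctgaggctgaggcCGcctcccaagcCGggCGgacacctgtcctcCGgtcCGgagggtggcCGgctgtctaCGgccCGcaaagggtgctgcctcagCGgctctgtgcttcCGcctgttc

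The second set gives 24-mers that recur at the summits of many shared regions, on either strand, again with CpGs in capitals. They were found by taking, repeatedly, the 24-mer held by the most regions not yet covered. Those printed are a part of the 12 found this way, and some that are not printed lie at more summits than 24-mers 9 and 11 do.
24-mer 1: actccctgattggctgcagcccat
24-mer 2: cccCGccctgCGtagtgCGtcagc
24-mer 3: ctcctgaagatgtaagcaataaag
24-mer 4: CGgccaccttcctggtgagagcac
24-mer 9: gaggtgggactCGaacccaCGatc
24-mer 10: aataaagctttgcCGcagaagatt
24-mer 11: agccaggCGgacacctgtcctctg

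The satellite window above is 1 of 3 windows of mouse major satellite, the repeat around centromeres, among the 6 regions, at most 1 per chromosome, whose least significant peak was the most significant. The Gm608 window repeats a unit of 38 bases and holds 16 CpGs in the bases shown, and the Zrsr1 window holds 16. By their letters, 24-mers 1, 3 and 10 belong to the long terminal repeat of IAP elements. These names rest on general knowledge of the mouse genome, since no repeat annotation was used here, and the other 24-mers are left without a name.

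The peaks of the samples were well aligned in the shared regions. The median length of the regions was 1260 bp (663 to 9711 bp), against 1121 bp for regions of 13 samples and 778 bp for all other merged regions. In 11450 of them (78.5%) each sample had a single peak, and in 14427 (98.96%) some stretch was covered by peaks of all 14 samples, with a median of 516 bp. The outermost of the 14 summits lay a median of 94 bp apart and within 200 bp of each other in 72.1% of the regions. The height of peaks went with the number of samples. The median of the mean fold enrichment over local background was 9.16 in the 32860 regions found in 1 sample, 20.8 in the 8672 found in 13 samples and 21.6 in the shared regions. The rule builds in part of the height and length, since every sample needed a peak past the cutoff and the length is that of all merged peaks.

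At the border of the set, the sample without a peak was mostly one of the pair with the fewest peaks. Of the 8672 regions with peaks of 13 samples, 4468 lacked ES replicate 2 and 3364 lacked MEF replicate 3, together 90.3%. The same samples held the least significant peak in 3778 and 5506 of the shared regions. That least significant peak had a median score (10 times −log10 of the p-value of MACS) of 152 in the shared regions, and in the 13-sample regions the least significant of the 13 peaks had 77.1. In 9.09% of the shared regions the score was under 60, where a peak needed 50. Leaving out ES replicate 2 raised the number of shared regions to 19052, and leaving out MEF replicate 3 raised it to 17959. Any other sample left out gave 14584 to 14871.

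The shared regions were richer in CpGs than the rest. A window of 301 bases around the summit held a median of 15 CpGs (quartiles 13 and 18), against 10 (8 and 12) in all other merged regions, and the median rose from 8 in regions of 1 sample to 13 in regions of 13 samples. The G+C content did not go with this, at a median of 48.2% in the shared and 48.3% in the other regions. Over whole regions the density was 2.61 CpGs per 100 bp, against 2.16 in the others and 0.851 in chromosomes 1 to 19 as a whole. Windows with 15 to 19 CpGs belonged to a shared region in 37.03% of all cases and windows with 20 to 29 in 35.6%, whereas with 10 to 14 the share was 8.60%, with 5 to 9 it was 1.11%, and with 30 or more it was 6.88%. MBD capture depends on the number of methylated CpGs in a fragment, so CpG number and peak height are not separate measures.

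They were also rich in repeated DNA. The 75 bases at the summit, the length of a read, occurred once in the genome in 8585 shared regions (58.9%), against 90.8% of the other merged regions. They occurred more than 10 times in 3936 (27.0%), against 4.83%. The rise was steep at the end of the scale, since 10.0% of regions of 10 samples, 20.5% of regions of 13 samples and 41.1% of the shared regions had a summit sequence found more than once. How reads that fit several places were treated is not given in the sources used here, and tags of such regions cannot be assigned to 1 copy. Tandem repeats with a unit of 2 to 150 bases lay at the summit of 263 shared regions (1.80%) and 0.718% of the others. The call needed the unit to recur over the whole window at 80% of the letters, so repeats that end within it, such as that of D6Wsu116e, were not counted.

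**Figure D1:**
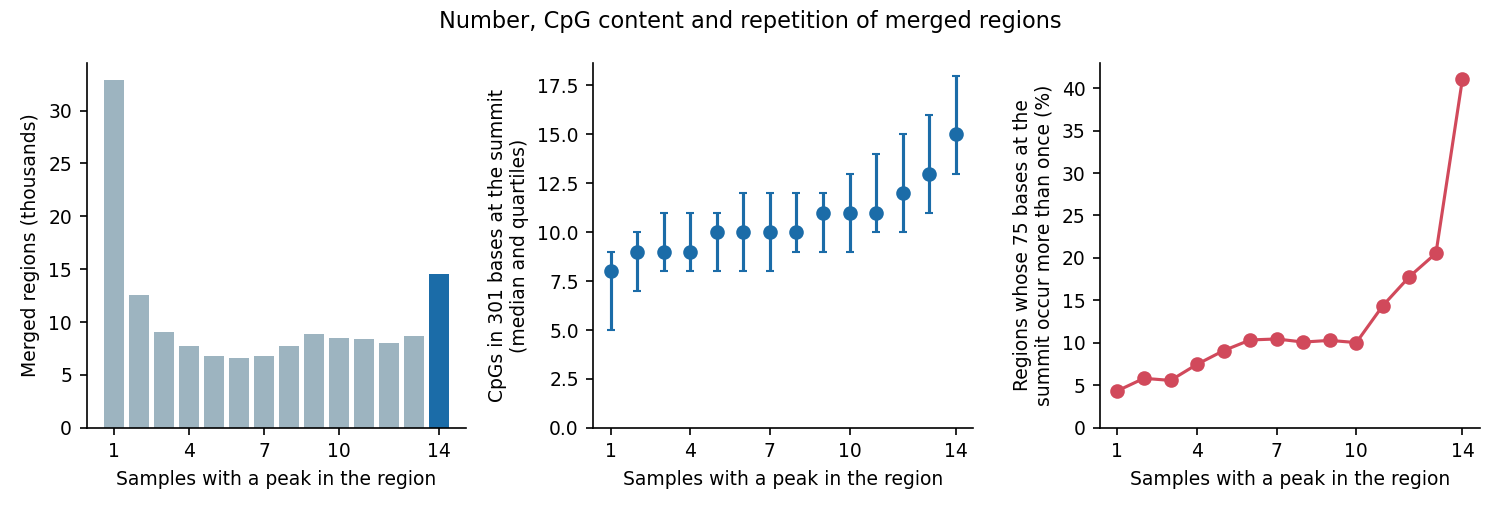
Merged regions by the number of samples with a peak in them (1 to 14). Left, their number, with the shared regions in dark blue; middle, CpGs in the 301 bases around the summit (median, with bars from the lower to the upper quartile); right, percentage whose 75 summit bases occur more than once in the genome. The CpG median climbs from 8 to 15, and the repeated share climbs from 20.5% at 13 samples to 41.1% at 14.

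A small number of sequences made up a large part of the set. The IAP 24-mers 1, 3 and 10 lay in the summit window of 1928, 1848 and 746 shared regions, and 1064 regions held both 24-mers 1 and 3. At least one of the 3 lay in 2937 summit windows, and anywhere within 4307 shared regions (29.5%). Of all merged regions with 24-mer 1 at the summit, 64.2% were shared by all 14 samples, and 1074 regions had peaks of fewer samples. 24-mer 2, which has 3 CpGs, was still more closely tied to the set. It lay at the summit of 799 shared regions and 2 others, so 99.75% of its carriers were shared. Anywhere within a region, 24-mer 2 lay in 1285 shared regions. Nearly all of these also held 24-mer 1, 3 or 10, since adding 24-mer 2 raised the 4307 only to 4325. 24-mer 9, with 2 CpGs, lay in 220 shared regions and 9 others. In contrast, 24-mer 11 lay in 209 shared and 1095 other regions, and 24-mer 4 in 359 and 349. At least one of the 12 recurring 24-mers lay at the summit of 41.0% of the shared regions and 5.75% of the others. The 24-mers were chosen for their number in the shared regions, so an excess over the others is built in. Copies of a repeat share reads, so their peaks are not independent of each other.

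Short motifs were searched on both strands of the 301-base windows. TGCCGC, the core bound by ZFP57, a zinc finger protein known to protect imprints, occurred in 27.9% of shared and 11.1% of other regions. At equal CpG number the difference was 34.96% against 14.04% with 15 to 19 CpGs, 23.6% against 21.1% with 20 to 29, and the reverse, 9.21% against 35.8%, with 30 or more. The motif is part of 24-mer 10, and in shared regions whose 31 summit bases occur once it was present in 18.1%. TGACGTCA, the cyclic AMP response element, occurred in 8.19% against 0.957%, with 15.6% in shared regions of more than 10 copies and 1.24% in those found once. CACGTG, an E-box, was less frequent in the shared regions (5.41%) than in the others (9.03%). A match of letters does not show that a factor was bound.

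The annotation also differed. Of the shared regions, 55.6% were intergenic, 22.9% intronic, 16.7% exonic and 4.77% (696) within 500 bp of a start site, whereas the other regions were 42.3%, 35.1%, 16.3% and 6.27%. Start sites of protein-coding genes were in 2.84% of shared and 4.79% of other regions. The exonic ones were mostly single-copy. Among the 6025 shared regions whose 31 summit bases occur once, 38.6% lay in exons, and among the 6828 with over 10 copies 0.483% did and 76.7% were intergenic. Every autosome had its part of them, with 8.45% (chromosome 11) to 11.2% (chromosome 16) of its merged regions shared.

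The 6 shared regions named for the strength of their weakest peak were 3 satellite, 2 tandem repeat and 1 CA repeat regions. The satellite regions at chr12:3109347-3110536, chr9:35112254-35113671 and chr2:98505967-98507974 had fold enrichments of 30.2 to 41.9, 27.6 to 31.2 and 5.84 to 6.05 over the 14 samples. Their tag counts were 681 to 735, 1259 to 1272 and 3166 to 3260, although the libraries differed in filtered tags (6.65 to 19.6 M). Per M filtered tags the same regions had 35.05 to 110.2, 64.43 to 190.6 and 165.8 to 475.8. The narrow spans of fold enrichment therefore do not show even methylation. At most 2 tags per position were kept, and whether this limit held the counts level was not tested. The intron of Cbfb, which encodes a subunit of core binding factors, held a repeat of 32 bases with a fold enrichment of 14.8 to 17.8, and the Gm608 repeat had 21.7 to 27.5. The sixth, 3.76 kb from Kit, the stem cell factor receptor, held CpGs among CA repeats. Scores of MACS end near 3100, so the 4 regions with a least score of 3100 cannot be ranked. Of the 100 shared regions with the highest least score, 44 had a tandem repeat, against 1.80% of all shared regions, and their summit window held a median of 22 CpGs.

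The share of all filtered tags that fell into the shared regions was higher in every iPS clone than in every ES or MEF sample, whereas ES lines and MEFs overlapped. In Aid+/+ iPS clones it was 28.1%, 28.4%, 27.8% and 23.6%, and in Aid-/- iPS clones 27.3%, 24.2%, 26.5% and 27.7%. The ES lines had 19.5%, 12.7% and 21.1%, and the MEF cultures 13.9%, 13.3% and 10.6%. The genotypes of iPS cells overlapped fully, at 27.0% ± 2.27 and 26.4% ± 1.54 (SD, n = 4 each), whereas ES cells (17.8% ± 4.47, SD, n = 3) and MEFs (12.6% ± 1.74, SD, n = 3) lay below every iPS clone. By the exact two-sided permutation test, p was 0.571 between genotypes and 0.0286 for MEFs and for ES cells against Aid+/+ iPS cells, the smallest p these group sizes allow. After adjustment over the 9 comparisons of this kind none passed 0.05 (0.643, 0.129 and 0.129 in that order).

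The lower share was not particular to the shared regions. All peaks together held 46.3% to 59.6% of the filtered tags in iPS clones, 15.4% to 52.2% in ES lines and 18.05% to 25.8% in MEFs. Of the tags in peaks, the shared regions held 39.7% to 59.8% in iPS clones, 40.5% to 82.4% in ES lines and 51.3% to 58.8% in MEFs, and these ranges overlap.

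The order of the groups was the same where the 75 summit bases occur once. Repeated sequence is not fully left out this way, since in 1511 of the 8585 regions the 31 summit bases occur more than 10 times. Counting only the 8585 shared regions whose 75 summit bases occur once, an alternative added after seeing the data, the shares were 12.4% ± 0.73 (SD, n = 4) in Aid+/+ iPS cells and 12.4% ± 0.53 (SD, n = 4) in Aid-/- iPS cells, 7.94% ± 2.88 (SD, n = 3) in ES cells and 5.998% ± 0.73 (SD, n = 3) in MEFs. By the MACS version and the prefix of the run name in the file headers, the samples fall into 4 groups, called runs here. These are groups of peak calling and are not known to be batches of library preparation or sequencing. Of them, 2 allow a look within a run. In run A, the Aid+/+ clone had 28.1% and the 3 Aid-/- clones 24.2% to 27.7%. In run C, the Aid-/- clone had 26.5%, the ES lines 12.7% to 21.1% and the MEF culture 13.9%. No Aid+/+ iPS clone shared such a run with ES cells or MEFs, so run and cell type cannot be told apart in those comparisons with Aid+/+ iPS cells.

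The height of peaks overlapped between all groups. The median fold enrichment of peaks in the shared regions was 22.4 ± 3.74 in the Aid+/+ and 22.8 ± 2.14 in the Aid-/- iPS clones (SD, n = 4 each), 20.5 ± 2.196 in ES cells and 17.7 ± 2.27 in MEFs (SD, n = 3 each), with exact permutation p = 0.914, 0.457 and 0.114 against Aid+/+ iPS cells. The length under peaks also overlapped, with group means of the median from 840.3 to 901.5 bp and exact permutation p of 0.286 to 0.486.

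**Figure D2:**
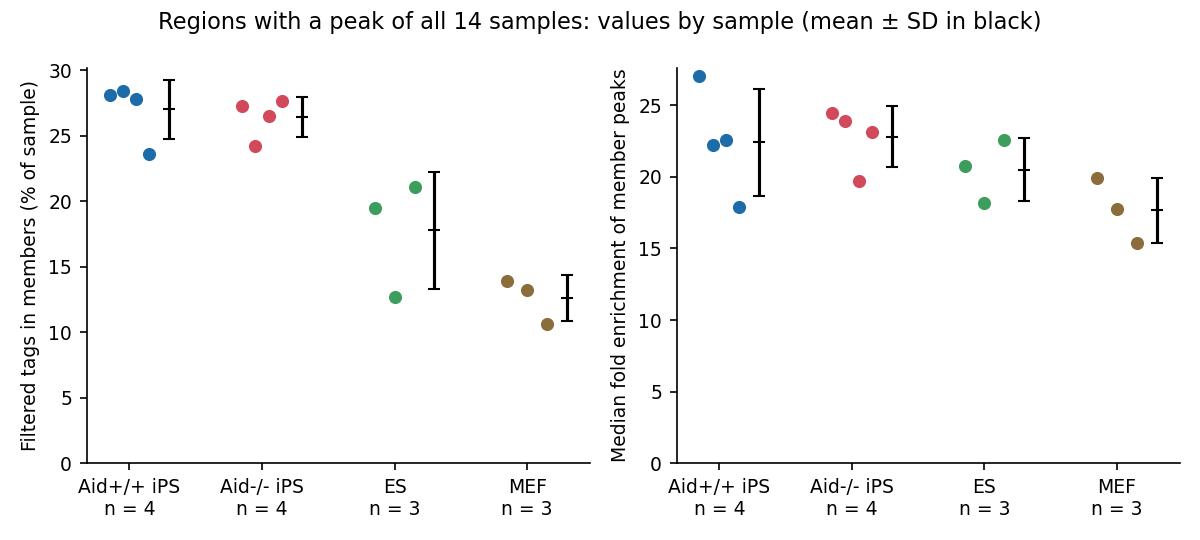
Values per sample in the shared regions (members), by group. Left, percentage of the filtered tags of a sample that lie in them; right, median fold enrichment of their peaks. Points are samples and black bars mean ± SD. On the left the iPS clones lie at 23.6% or above and the ES lines and MEF cultures at 21.1% or below, whereas on the right all groups overlap.

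Single regions varied 5.45-fold between the highest and lowest sample (median of the ratio), in tags per M filtered tags. The coefficient of variation (CV) over the 14 samples had a median of 41.6%, and within groups it was 17.4% among Aid+/+ and 16.03% among Aid-/- iPS clones, 23.0% in MEFs and 44.5% in ES cells. Across regions, which are not independent replicates, the correlation of tags per M (log2) averaged 0.92 between pairs of clones from different genotypes and 0.92 and 0.93 within Aid+/+ and Aid-/- iPS cells. It averaged 0.94 within MEFs, 0.76 within ES cells and 0.74 between Aid+/+ iPS cells and MEFs. The most even region lay at the promoter of Rcvrn (chr11:67508591-67509809), which encodes recoverin, a calcium sensor of photoreceptors, with a CV of 12.8%. Its tags per M were 29.4, 23.7, 22.5 and 19.2 in Aid+/+ iPS cells, 21.9, 24.97, 22.1 and 21.4 in Aid-/- iPS cells, 24.1, 29.2 and 23.1 in ES cells and 23.1, 20.4 and 27.0 in MEFs, and all groups overlapped. On the TMM scale used below it was called higher in MEFs (log2 change 1.29, edgeR adjusted p = 0.000548). The least even one, at chr6:19095021-19097276, had a CV of 111%, and its values are given with the MEF comparison.

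Imprinted genes stood out among gene start sites. Of 19 annotated genes whose imprint comes from the egg, 11 (57.9%) had a shared region within 500 bp of a start site, against 674 of 21281 protein-coding genes (3.17%). These were Nnat, Mest, Peg3, Snrpn, Inpp5f, Plagl1, Zrsr1, Airn, Impact and, through 2 regions of the complex locus, Gnas and Nespas. Of 4 genes whose imprint comes from sperm, H19 had one at its start. The lists were written with earlier results of these data known. In the other lists, start sites of 2 of 30 germline genes (Dazl and Dpep3), 6 of 1106 olfactory receptor genes, 3 of 361 zinc finger genes (Zfp180, Zfp61 and Zfp146) and 1 of 34 protocadherin genes (Pcdha11) lay in shared regions. None of 19 housekeeping, 15 lineage regulator, 12 pluripotency, 12 fibroblast or 326 vomeronasal receptor genes did.

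The tags at imprinted start sites differed between genes and samples. At Zrsr1, a splicing factor gene inside Commd1 (chr11:22871534-22874384), tags per M were 59.6, 68.5, 58.7 and 36.6 in Aid+/+ iPS cells, 65.9, 54.3, 42.7 and 63.5 in Aid-/- iPS cells, 69.8, 36.8 and 52.3 in ES cells and 50.1, 50.1 and 58.1 in MEFs. All 4 groups overlapped there. At H19, a non-coding RNA gene (chr7:149762199-149763252), the clones had 15.8, 13.8, 9.80 and 9.86 in Aid+/+ and at least 9.51 in Aid-/- iPS cells, ES cells 8.80, 8.28 and 8.90 and MEFs 6.68, 4.57 and 4.78, so that ES cells and MEFs lay below all iPS clones. At Snrpn, which encodes a splicing protein (chr7:67148874-67150526), the MEFs with 4.64, 4.68 and 2.96 again lay below all iPS clones (8.93 to 14.3). MEFs lay below all iPS clones also at Mest, Peg3 and the Gnas region at chr2:174170320-174172404. This is not particular to these genes. With filtered tags as library size, 12606 of 14579 shared regions were called lower in MEFs than in Aid+/+ iPS cells. The share of all shared regions without overlap was not counted. ES replicate 2 stood apart at Plagl1, a zinc finger gene (chr10:12809483-12812128), with 2.63 against 25.04 and 26.3 in the other ES lines, and at Inpp5f (chr7:135830749-135832603), a phosphatase gene, with 4.58 against 40.3 and 31.4. At Airn, the antisense RNA gene within Igf2r (chr17:12933855-12935941), the same line had the highest ES value, 37.3 against 28.4 and 25.9. Such differences of ES replicate 2 were not particular to imprinted genes. It had 1.62 against 13.1 and 37.1 at an intron of Synj2 described below, and 29.2 against 24.1 and 23.1 at the promoter of Rcvrn.

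**Figure D3:**
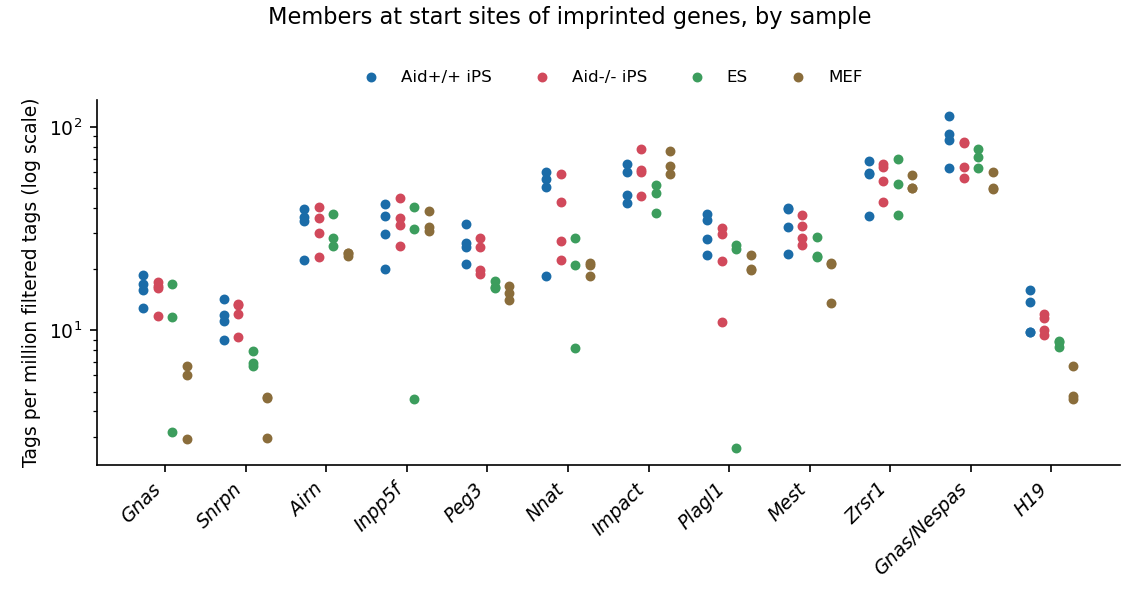
Tags per M filtered tags (log scale) in the shared regions at start sites of 12 imprinted genes or gene pairs, with 1 point per sample, coloured by group. The 2 genotypes of iPS cells overlap at every gene, and 1 ES line (replicate 2) lies far below the others at Plagl1 and Inpp5f. The MEFs lie lowest at Snrpn, Mest and H19, on a scale where most shared regions are lower in MEFs than in Aid+/+ iPS cells.

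Counts of tags per region were then compared with the edgeR quasi-likelihood test, in which TMM scaling sets the libraries so that most tested regions do not differ. All merged regions with a peak of every sample compared were fitted and adjusted together (Benjamini-Hochberg), and all 14579 shared regions were among them. Between Aid-/- and Aid+/+ iPS cells, 1 shared region was called at an adjusted p under 0.05, and it was the only call among all 47835 regions tested (0.00209%). At an unadjusted p under 0.05 there were 500 shared regions (3.43%), beside 3.63% of all regions tested. The median log2 change was 0.01, and 90% of the shared regions lay between −0.28 and 0.39.

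The called region lies in an intron of D6Wsu116e (chr6:116191600-116192917), and the window printed above repeats a short unit with 1 CpG. It had 17.5, 26.5, 19.4 and 16.4 tags per M in Aid+/+ iPS cells and 6.10, 4.75, 7.21 and 3.75 in Aid-/- iPS cells, so every Aid-/- clone was below every Aid+/+ clone. The log2 change was −1.84 ± 0.20 (SE, edgeR, adjusted p = 0.00585). The ES lines had 24.9, 16.1 and 3.87 and the MEFs 9.74, 11.2 and 9.72, which span the range between the genotypes and beyond. The call was lost with clone series as a block (edgeR adjusted p = 0.0863), with total tags as library size (0.0812) and with summed peak length as an offset (0.1). It was also lost without Aid-/- replicate 1, 2 or 4 (0.0504 to 0.0806). The block compares the genotypes only within series 979, 2 clones against 2, and the log2 change was −1.56. Within run A, with 1 Aid+/+ clone against 3, it was −1.98. Over all 16 alternatives, with edgeR, DESeq2 and limma, the adjusted p ranged from 5.79e-10 to 0.9999. On fold enrichment (limma) the log2 change was −0.50.

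The regions of smallest p among those higher in Aid-/- iPS cells did not pass the edgeR test. At an intron of Synj2 (chr17:5948742-5950310), which encodes a lipid phosphatase, the tags per M were 14.2, 20.4, 16.9 and 15.6 in Aid+/+ and 38.5, 36.1, 30.96 and 25.8 in Aid-/- iPS cells, without overlap (log2 change 1.04 ± 0.19, edgeR adjusted p = 0.277). At chr15:43218718-43219656, 43.3 kb from Gm10373, they were 1.51, 1.63, 3.69 and 2.91 against 6.66, 8.999, 4.81 and 6.37 (1.58 ± 0.30, edgeR adjusted p = 0.288). DESeq2 called both (adjusted p = 0.00046 and 0.00365), and on fold enrichment (limma) the log2 changes were 0.067 and 0.89, not called. Both windows hold CpGs within CA/TG repeats. Over the 354 shared regions whose summit window carries a run of CA repeats, the median log2 change was 0.41, with 328 above 0 and none called. The median over all shared regions was 0.01. With clone series as a block, where only the clones of series 979 compare the genotypes, the values were 0.86 against 0.13 over all. Within run A, which holds 1 Aid+/+ clone, they were 0.12 against −0.17. On the fold enrichment of peaks (limma) it was 0.07 against 0.02. The part of all tags in shared regions that fell into the CA repeat regions overlapped, at 1.10% to 1.22% in Aid+/+ and 1.17% to 1.95% in Aid-/- clones. Against Aid+/+ iPS cells, the same regions had medians of 0.73 in ES cells (310 above 0) and 0.49 in MEFs. Between the genotypes, the median was also 0.48 with 30 or more CpGs at the summit (66 of 76 above 0) and 0.30 at tandem repeats (228 of 263). The IAP regions had a median of −0.03 (2937 regions, none called), and the 11 imprinted start sites of the maternal list −0.01, none called.

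Between MEFs and Aid+/+ iPS cells, 5838 shared regions were called (40.0%), beside 43.8% of the 21863 regions tested. Of these, 2680 were higher and 3158 lower in MEFs, beside 23.8% higher and 20.0% lower among all regions tested. The median log2 change was −0.12 in the shared regions and −0.05 over all. The split depended on the scaling. With filtered tags as library size, which keeps the lower share of MEF tags in peaks, 391 shared regions were higher and 12606 lower (median −1.37), beside 84.1% called over all regions, 5.72% higher and 78.4% lower (median −1.29). With total tags 688 were higher and 3452 lower (median −0.58), beside 32.2%, 9.41% and 22.8% (median −0.50). The changes below are on the TMM scale, and directions are relative to the other regions.

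**Figure D4:**
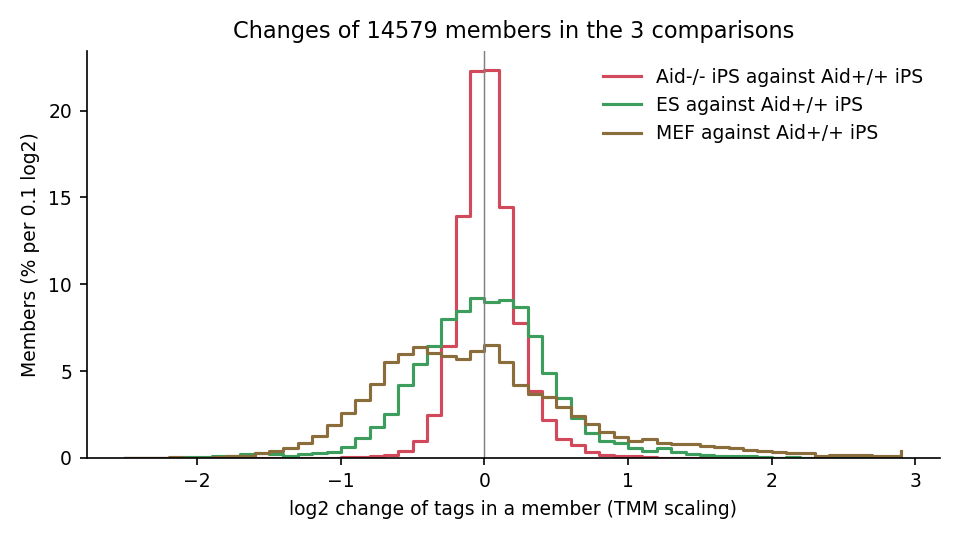
Distribution of log2 changes (x axis, TMM scaling) over the 14579 shared regions in the 3 comparisons with Aid+/+ iPS cells, in percent of regions per 0.1 log2, with changes beyond the ends added to the end bins. The genotypes differ little, with 90% of regions between −0.28 and 0.39, and the MEF curve is the widest, with 90% between −1.03 and 1.46.

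The direction in MEFs went with CpG number at the summit. With up to 9 CpGs the median log2 change was −0.21 (106 of 770 regions called higher and 174 lower). With 10 to 14 CpGs the median log2 change was −0.41 and 487 of 5022 regions were called higher and 1642 lower. With 15 to 19 it was −0.09 (1094 higher and 1250 lower of 6511), with 20 to 29 it was 0.39 (928 and 91 of 2200), and with 30 or more 1.78 (65 and 1 of 76). The order of the 4 classes from 10 CpGs up was the same with filtered tags as library size, where the medians were −1.65 for 10 to 14, −0.87 for 20 to 29 and 0.47 for 30 or more, so that only the last class kept a positive median there. On the fold enrichment of peaks (limma) the order did not hold at the top, with medians of 0.16 for 20 to 29 and 0.13 for 30 or more.

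The values of repeat families in MEFs depended on the scale. The 2937 regions with an IAP 24-mer (1, 3 or 10) at the summit had a median of −0.31. Of these, 57 were called higher (1.94%) and 696 lower (23.7%), beside 18.4% and 21.7% of all shared regions. On fold enrichment (limma) their median was −0.23, as was that of all shared regions. Their part of all tags in shared regions was 18.2% ± 1.23 in MEFs (SD, n = 3) against 22.1% ± 0.60 in Aid+/+ iPS cells (SD, n = 4). The 799 regions with 24-mer 2 at the summit had a median of 0.12 (68 higher and 5 lower). Nearly all of them also held an IAP 24-mer within the region, so they are not a family apart. Their median lay above that of all shared regions by 0.24 on this scale. The difference was 0.22 with filtered and 0.19 with total tags as library size, and 0.71 on fold enrichment. For 24-mer 4 the median was 1.26, with 251 of 359 regions called higher and 9 lower, and its part of the tags was 2.59% ± 0.24 in MEFs (SD, n = 3) against 1.104% ± 0.05 in Aid+/+ iPS cells (SD, n = 4). For 24-mer 11 it was 1.43 (161 of 209 higher and 3 lower), with 0.864% ± 0.033 against 0.363% ± 0.055 of the tags. With filtered tags as library size the medians of 24-mers 4 and 11 were 0.01 and 0.20, and on the fold enrichment −0.18 and 0.07, so that the direction for 24-mer 4 held on the TMM and total tag scales (0.77) but not on fold enrichment. Copies of a repeat share reads, and these regions are therefore not separate measurements.

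**Figure D5:**
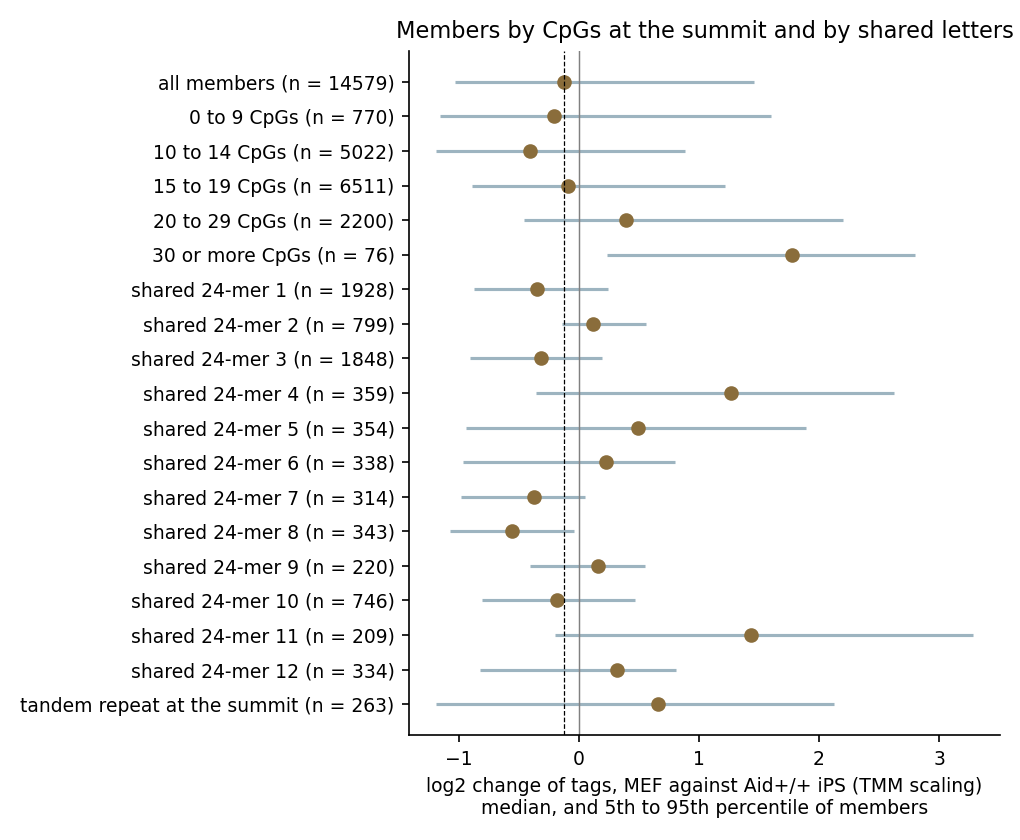
Log2 change of tags in MEFs against Aid+/+ iPS cells (x axis, TMM scaling) for classes of the shared regions (members, y axis): CpGs in the 301-base summit window, the 12 recurring 24-mers and tandem repeats. Points are medians and bars the span from the 5th to the 95th percentile of regions; the dashed line is the median of all shared regions (−0.12). The medians run from −0.41 at 10 to 14 CpGs to 1.78 at 30 or more, and 24-mers 4 and 11 lie at 1.26 and 1.43.

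The 3 regions that rose most in MEFs had summit windows with letters that recur elsewhere, since 309 other shared regions held a 24-mer of the first. The 3 regions were picked among called ones without overlap of MEFs and Aid+/+ iPS cells, so the lack of overlap is not a separate result. The intron of Acnat1, a gene of amino acid conjugation (chr4:49478696-49480550, printed above), had 4.78, 2.49, 1.73 and 3.22 tags per M in Aid+/+ iPS cells and 43.1, 43.9 and 31.8 in MEFs. The log2 change was 4.92 ± 0.28 (SE, edgeR adjusted p = 5.32e-08). The Aid-/- clones had 3.38, 5.36, 6.01 and 10.04 and the ES lines 17.5, 13.5 and 16.97, so the ES lines lay above every iPS clone and below the MEFs. At chr3:90930273-90932401, 36.2 kb from 9130204L05Rik, the values were 2.64, 1.89, 3.37 and 1.66 in Aid+/+ iPS cells and 27.9, 25.9 and 17.9 in MEFs (4.54 ± 0.22, edgeR adjusted p = 2.06e-08). At chr6:19095021-19097276, 266.6 kb from Ankrd7, they were 2.32 to 5.40 and 31.3, 28.8 and 24.6 (4.21 ± 0.25, edgeR adjusted p = 6.92e-08). All 3 lost the call on the fold enrichment of peaks (limma log2 changes of 0.15, 0.40 and 0.10, adjusted p = 0.577, 0.14 and 0.701), and kept it in the other 12 alternatives, among them filtered tags as library size, where the changes were 3.68, 3.30 and 2.95.

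Other shared regions with letters of these 3 behaved alike on the TMM scale. A 24-mer of one of them occurred in 307 other shared regions, a set chosen after the values were seen. Their median log2 change in MEFs was 1.36, with 231 called higher (75.2%, beside 18.4% of all shared regions) and 2 lower (0.65%, beside 21.7%). Per M filtered tags their medians ran from 3.14 to 4.46 in the Aid+/+ iPS clones and from 3.57 to 5.20 in the MEF cultures, which overlap, and the median log2 change was 0.11 on that scale and −0.01 on fold enrichment.

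Among the 3 named regions that fell most in MEFs, 2 are described here. In an intron of Mup2, a major urinary protein gene (chr4:60121685-60123489), they were 13.4, 21.6, 19.6 and 16.8 against 1.43, 1.66 and 1.48 (−2.28 ± 0.23, edgeR adjusted p = 5.96e-06). At chr7:16389260-16391507, 28.8 kb from Obox6, an oocyte homeobox gene, they were 6.60, 17.03, 20.15 and 21.6 against 1.22, 1.94 and 1.32 (−2.19 ± 0.38, edgeR adjusted p = 0.000625). Both kept the call in all 13 alternatives.

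Among the imprinted start sites of the maternal list, 7 of 11 were called higher and none lower in MEFs on the TMM scale, with a median of 0.55. Of all shared regions 18.4% were called higher, and of those with 20 to 29 CpGs at the summit 42.2%. The called ones were Impact (1.62 ± 0.24), Inpp5f (1.39 ± 0.25), Zrsr1 (1.23 ± 0.23), Airn (0.81 ± 0.20), Plagl1 (0.72 ± 0.19), the Gnas/Nespas region (0.55 ± 0.20) and Peg3 (0.46 ± 0.17). The edgeR adjusted p ranged from 0.000147 to 0.045. Snrpn (−0.25 ± 0.19), Nnat (0.11 ± 0.30), Mest (0.45 ± 0.24) and the other Gnas region (−0.42 ± 0.22) were not called, and neither was H19 (0.05 ± 0.23). With filtered tags as library size the median turned to −0.74, with none called higher and 8 lower, which is 0.63 above the median of all shared regions on that scale. Dazl, which encodes an RNA-binding protein of germ cells (chr17:50432156-50433931), had 33.8, 14.2, 17.8 and 14.3 tags per M in Aid+/+ iPS cells and 36.6, 32.4 and 35.2 in MEFs (log2 change 2.06 ± 0.29, edgeR adjusted p = 9.82e-05), and overlapped between the groups per M. The other germline gene, the testis dipeptidase gene Dpep3, did not pass (0.19 ± 0.18, edgeR adjusted p = 0.43). Of the 6 olfactory receptor start sites 1 was called higher and 2 lower, with Olfr691 at 0.49 ± 0.16 and Olfr282 at −0.81 ± 0.23, and all 6 were lower with filtered tags as library size. At Olfr691 the tags per M were 17.9 to 20.6 in Aid+/+ iPS cells and 9.56 to 11.8 in MEFs, so its direction on the TMM scale is the opposite of that per M. Zfp180 and Zfp146 (0.61 ± 0.23 and 0.81 ± 0.18) were called higher and Zfp61 (0.05 ± 0.20) was not. Here too the direction per M was the opposite, with 6.64 to 11.6 in Aid+/+ iPS cells and 5.14 to 6.28 in MEFs at Zfp180, and 19.01 to 24.3 and 13.4 to 19.9 at Zfp146.

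Between ES and Aid+/+ iPS cells, 3 shared regions were called, 2 higher and 1 lower in ES cells, beside 0.0178% of all 22466 regions (0.0134% higher and 0.00445% lower). The higher ones were the Acnat1 intron and chr3:90930273-90932401, in which the ES lines had 17.5, 13.5 and 16.97 and 9.98, 4.85 and 8.84 tags per M (log2 changes 3.10 ± 0.37 and 2.38 ± 0.31, edgeR adjusted p = 0.0215 and 0.0293). The lower one, chr3:6477970-6479114, 136.7 kb from 1700008P02Rik, had 14.6, 21.2, 20.7 and 21.7 in Aid+/+ iPS cells, 17.1, 16.7, 28.4 and 19.6 in Aid-/- iPS cells and 1.86, 1.01 and 4.71 in ES cells (−2.35 ± 0.33, edgeR adjusted p = 0.0395). The MEFs, with 4.69, 3.54 and 2.20, were also below all iPS clones (−1.25 ± 0.21, edgeR adjusted p = 0.00054).

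The number of calls against ES cells changed with the samples used. Without ES replicate 3, of strain C57BL6, 1810 shared regions were called, 580 higher and 1230 lower, beside 10.1% of all regions tested (3.48% higher and 6.62% lower), and without any other sample at most 1 was. DESeq2 called 251. At an unadjusted p under 0.05 edgeR gave 1558 shared regions (10.7%), beside 10.06% of all regions tested. Other shared regions that hold a 24-mer of the chr3:6477970 window, a set chosen after its values were seen, had a median log2 change of −1.51 in ES cells with 6 above 0 and none called. In MEFs it was −0.71, with 158 (78.6%) called lower and 4 higher, beside 21.7% lower and 18.4% higher among all shared regions. In Aid-/- iPS cells it was 0.07. On fold enrichment (limma) the medians were −0.43 in ES cells and −0.30 in MEFs, where 31 were called lower and 2 higher. These regions share letters, so they are not separate measurements.

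Along genes, 4059 of 21281 protein-coding genes (19.1%) held a shared region in their body. The most lay in Gm20388, a gene model of 4435 kb on chromosome 8, with 74. Fgfr2, annotated over 3009 kb here, and Wwox, a tumour suppressor gene of 913.05 kb, held 14 each, Gpc6, a glypican gene, 12, and Cdh23, a cadherin gene of the inner ear, 11 in 393.7 kb. Of the imprinted genes of the maternal list, 16 of 19 held one. This count is not separate from that at start sites, since a region at a start site can also lie in the body. No pluripotency or housekeeping gene held one in its body, of 12 and 19.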

How the data were processed

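Methylated DNA of 8 iPS clones, 3 ES lines and 3 MEF cultures was captured with the EpiXplore kit and sequenced from 1 end. Per the labels and file headers, the authors mapped reads with BWA 0.5.9rc1 to NCBI37 (mm9) and called peaks in each sample with MACS (1.4.1 in 9 samples, 1.4.0rc2 in 5), without a control library, at a p cutoff of 1e-05, with at most 2 tags per position and a local background of 10 kb. How reads that map to several places were treated is not given in the sources used here. The deposited peak lists give the count of tags per peak, a significance score of 10 times −log10 of the p-value, the fold enrichment over background, and positions. Total and filtered tags are those in the file headers. 50963 peaks (4.79%) outside chromosomes 1 to 19 were left out, and 1012200 were used.

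Peaks were merged at an overlap of 1 bp with Python 3.11.15 and pandas 2.3.3, and the tags of a sample's peaks in a region were summed. Counts were tested with the quasi-likelihood test of edgeR 4.0.16 (TMM, Benjamini-Hochberg over all regions with a peak of every sample compared, adjusted p under 0.05). The fit was without a replicate block. DESeq2 1.42.0, limma 3.58.1 on log2 fold enrichment and other library sizes were alternatives. Exact permutation tests were two-sided. The count and merging steps were tested on simulated data. Samples are separate clones, lines or cultures. CpGs, copies of the summit sequence, tandem repeats (unit of 2 to 150 bases, 80% identity) and 24-mers were read from the NCBI37 sequence.

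The shared regions, the lists and the rules were chosen with earlier results of these data known. Named regions were the 6 with the most significant weakest peak (1 per chromosome), in each comparison and direction the 3 called regions of largest change without overlap of the groups (the 3 of smallest p where none was called), the 3 of lowest and highest CV, those at start sites of listed genes (up to 5 a list, all imprinted ones), and the 5 genes with the most regions. A peak was required in every sample, and the lowest tag count of a shared region in a sample was 10. Tags outside called peaks were not analysed here. 1 named region and a check at another gene are not reported here.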

Additional observations from a re-analysis of the deposited data

Results flagged for a closer look

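In groups of 4 samples, 6 values lay far from the other 3 of their group by Dixon's test, out of 96 groups examined, where chance flags about 1 in 20. The share of filtered tags in the shared regions was 23.64% in Aid+/+ replicate 4, against 27.8% to 28.4% in the other Aid+/+ clones. In tags per M filtered tags, the region near 9130204L05Rik (chr3:90930273-90932401) had 4.032 in Aid-/- replicate 1, against 5.67 to 5.86 in the other Aid-/- clones. The region near Obox6 (chr7:16389260-16391507) had 17.13 in Aid-/- replicate 3, against 9.61 to 10.4. The region near 1700008P02Rik (chr3:6477970-6479114) had 14.58 in Aid+/+ replicate 1, against 20.7 to 21.7. The tandem repeat near 1700101G07Rik (chr2:169392165-169393962), with a unit of 27 bases, had 40.04 in Aid-/- replicate 2, against 48.2 to 49.1. Olfr691 had 20.62 in Aid+/+ replicate 3, against 17.9 to 18.2.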

How the results depend on the processing

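No paired analysis was possible because the replicate numbers of the labels only name samples. The clone series was used as a block instead. Only series 979 holds both genotypes, so this block compares 2 clones with 2. With it no shared region was called between Aid-/- and Aid+/+ iPS cells (0, against 1 in the reported fit). There, DESeq2 called 9, filtered tags as library size 4, and total tags, peak length as an offset, limma on fold enrichment and run A alone called 0 each. Between MEFs and Aid+/+ iPS cells, filtered tags as library size called 12997 shared regions and peak length as an offset 3418, against 5838. Between ES and Aid+/+ iPS cells, DESeq2 called 251, total tags 1, filtered tags 0, peak length as an offset 8 and limma on fold enrichment 0, against 3. The Gm20388 intron (chr8:126124060-126128393), not called between genotypes at a log2 change of 1.17, had −0.16 on fold enrichment and −0.013 with peak length as an offset.

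Leaving out 1 sample at a time, the number of shared regions was 14584 to 19052. The calls were 0 (without Aid-/- replicate 1) to 9 (without Aid+/+ replicate 1) between genotypes, 3991 to 7218 for MEFs and 0 to 1810 (without ES replicate 3) for ES cells. The difference from Aid+/+ iPS cells in the share of filtered tags, in percentage points, was −1.70 to 0.16 for Aid-/- iPS cells, −15.5 to −13.4 for MEFs and −10.9 to −6.70 for ES cells. That in median fold enrichment was −1.14 to 1.91 for Aid-/- iPS cells, −6.27 to −3.21 for MEFs and −3.44 to −0.38 for ES cells, and that in median peak length −72.6 to −23.3 bp, −63 to 3 bp and −105.5 to −8 bp. The number of shared regions was 14427 with a stretch common to all peaks, 13494 with peaks cut to 200 bp either side of the summit, 9795 with p at most 1e-10 and 10091 with equal numbers of peaks. The cause of these changes was not tested. With 3 or 4 samples a group the exact test cannot go below 0.0286.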
